A study of Schizosaccharomyces pombe with 28 samples.

Results

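The genes described here are genes of the fission yeast Schizosaccharomyces pombe with the systematic symbols mug ("meiotically upregulated gene") or meu ("meiotic expression upregulated") followed by a number. A gene was a member where the array's annotation or a newer annotation gave it such a symbol. That rule found 134 members among the 2899 S. pombe genes measured, 115 with a mug and 19 with a meu symbol on the array. In the newer annotation 93 genes have such a symbol only as an older synonym. Those of them without it on the array are not members, so the set is not every mug and meu gene. For 26 of the 134 members the newer annotation uses another name, which is the name used below. Among these 26 are oxr1 (mug63), egt1 (mug158), rtt106 (mug183), atd3 (meu8), otg2 (mug136), atg101 (mug66), pth4 (mug82), fzr3 (mug55), say1 (mug180) and meu1 (meu1-1).

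Transcript levels were measured on 28 Affymetrix arrays, 1 for each RNA sample, in 3 projects that the submitters number 488, 529 and 582. Project 488 compared 3 wild type (WT) with 3 zfs1-null samples and project 529 compared 5 with 5. Project 582 compared 4 strains with 3 samples apiece, namely WT, the cbf12-null strain, the zfs1-null strain and the double null, which lacks both genes. Every strain grew untreated in YES, a rich yeast extract medium, at 30 °C to an OD600 of about 1.0, so that all groups were growing cultures in which meiosis was not induced. PolyA RNA was selected and 25 ng of it was amplified and labelled. The sources used here do not give the mating type, further alleles of the strains or the number of clones behind each deletion. The submitters call the samples biological replicates, and nothing says how their cultures were kept apart, so the p-values below measure the spread between these samples.

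The mug and meu genes were named for transcripts that are scarce in growing cells and accumulate when starved cells mate and enter meiosis. Their products are diverse, from chromosome pairing proteins to enzymes of the spore wall, and many have no known function. Growing cells keep many meiotic transcripts low through RNA decay, and Zfs1, which is related to mammalian tristetraprolin and binds AU-rich elements, promotes the decay of its target mRNAs. Cbf12 belongs to the CSL family of transcription factors.

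The deleted genes matched the labels. The zfs1 signal lay between 390 and 630 in the strains that carry the gene in the comparisons below and was at least 81.3-fold lower in each zfs1-null group. For cbf12 the signal fell at least 38.1-fold in cbf12-null and at least 86.7-fold in double null arrays. The controls of these 2 comparisons differed, with cbf12 signals of 170 to 195 in WT and 411 to 497 in zfs1-null arrays. The cbf12 deletion thus removed a higher signal where Zfs1 was absent. Arrays of a group correlated with r of at least 0.97 over all genes. Each member had 1 probe set. The signal background of an array was taken as the 95th percentile of the probe sets for other species, 3.65 to 5.44, and 133 members lay above it on all 28 arrays. The exception was mug96, which lay below background on 1 of 3 zfs1-null arrays of project 488, on 2 of 3 zfs1-null arrays of project 582 and on 2 of 3 double null arrays. Averaged over the 11 WT arrays, the 6 lowest signals, 9.84 to 63.5, belonged to mug96, mug146, mug153, meu15, say1 and mug72. The 6 highest, 1817 to 2944, belonged to mug151, mug105, mug14, mug114, mug35 and mug168. The median of these WT signals was 432 for the members and 963 for all genes, and the shares below were not matched for signal. Probe sets differ in response, so these signals give no order of transcript abundance between genes.

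The first question was what the loss of Zfs1 did to the members in growing cells. Over the 3 projects, with a term for project, 79 of the 134 members changed (limma, two-sided, Benjamini-Hochberg adjusted over all 2899 genes, adjusted p under 0.05), against 41.6% of all genes tested. Of the members, 22 rose (16.4%, against 23.4% of all genes) and 57 fell (42.5%, against 18.3%). The share of rises among the called members shifted by 8.8 percentage points after quantile normalization and by -3.4 with array medians set equal. The median log2 change was -0.09 for the members and 0.02 for all genes. The members were 134 of the 2899 genes. Of all genes 3 rose and 17 fell at least 2-fold, and none of the 3 and 5 of the 17 were members. One of these 5 is mug96, whose zfs1-null signals lay partly below background. Each array measured RNA of a whole culture, so a lower signal from fewer expressing cells and one from less RNA per cell cannot be told apart. A list drawn up for conjugating, starved or sporulating cells, called mating state markers here, had 22 measured genes. In the same comparison 16 were lower and 2 higher, with a median log2 change of -0.46. Besides mating genes the list as drawn up holds others, such as fbp1, inv1, isp6 and rec12, so it marks no single state. Its summed signal fell from 12672–13286 in WT to 9947–11797 in zfs1-null arrays in project 488, from 13494–14160 to 12108–12907 in project 529, and from 15274–15650 to 11264–11914 in project 582. All 22 of these markers lay above background on all 28 arrays. Their part in the members' changes was not tested.

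**Figure D1:**
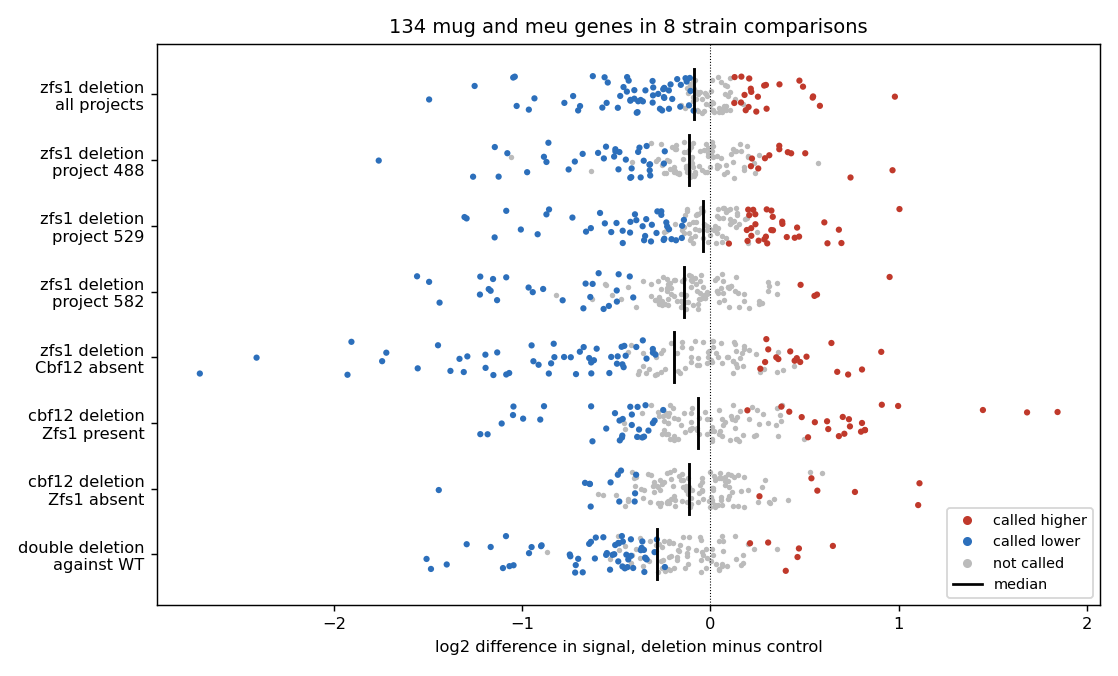
Log2 difference in signal (deletion minus control, horizontal axis) of each of the 134 mug and meu genes in 8 strain comparisons, coloured by call (adjusted p under 0.05), with the median of the members as a bar. On zfs1 deletion over all projects 57 members fell and 22 rose (18.3% and 23.4% of all genes). In the double null against WT 54 fell and 6 rose (19.7% and 15.5% of all genes). After quantile normalization the share of rises among called members shifted by 8.8 percentage points in the first and 35.9 in the second.

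The member that rose most was oxr1, a gene of the oxidation resistance protein family. Its signals in project 488 were 818, 773 and 860 in WT and 1725, 1657 and 1421 in zfs1-null arrays. In project 529 they were 431, 550, 580, 553 and 537 in WT and 993, 1051, 1085, 1097 and 1067 without Zfs1, and in project 582 756, 966 and 981 against 1654, 1858 and 1685. Every zfs1-null array lay above every WT array of its project. The rise was 1.97-fold (log2 0.98, SE 0.05, limma adjusted p = 2.1e-14). It was close in size in the 3 projects, at log2 0.97, 1.0 and 0.95.

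The next was mug176, which encodes a protein with a BRCT domain. Its signals were 462, 494 and 478 in WT against 637, 654 and 638 in project 488, and 630, 615 and 661 against 913, 1024 and 889 in project 582. In project 529 they ran from 333 to 361 in WT and from 544 to 557 in zfs1-null arrays. The groups did not overlap in any project, and the rise was log2 0.58 (SE 0.04, limma adjusted p = 5.7e-12). Smaller rises were those of meu23 (log2 0.55), of mug122 (0.54), which encodes a PX domain protein, and of mug51 (0.49). The others among the 10 largest were say1 (0.47), named for a budding yeast sterol deacetylase, the histone chaperone gene rtt106 (0.37), the CDC50 family gene mug89 (0.30), meu1 (0.29) and the amino acid permease gene meu22 (0.29). Without the project term mug89, meu1 and meu22 were not called (adjusted p = 0.086, 0.21 and 0.40).

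The member that fell most was mug153. Its WT signals were 32.8, 25.1 and 41.1 in project 488, 34.8, 35.9, 35.3, 31.8 and 33.9 in project 529, and 27.5, 27.1 and 25.1 in project 582. The zfs1-null signals were 11.3, 8.44 and 9.07 in project 488, 18.4, 14.6, 16.2, 10.3 and 11.9 in project 529, and 7.03, 12.3 and 8.45 in project 582. No zfs1-null array reached the lowest WT array, and the fall was 2.82-fold (log2 -1.49, SE 0.12, limma adjusted p = 9.1e-11). The signal of mug153 is low, and after quantile normalization its change in project 582 was log2 -0.11 (adjusted p = 0.82).

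For mug42 the WT signals were 208, 194 and 197 in project 488 and 229, 189 and 169 in project 582, and ran from 202 to 256 in project 529. Without Zfs1 they were 75.3, 87.9 and 87.6, then 102, 71.0 and 91.1, and from 78.9 to 103 in project 529. The 2 strains were fully apart, with a fall of 2.38-fold (log2 -1.25, SE 0.07, limma adjusted p = 2.3e-13). A similar fall was measured for mug177, from 62.1–110 over the 11 WT arrays to 31.8–46.5 over the zfs1-null arrays (log2 -1.05, SE 0.07).

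The transcript of mug14, which encodes a protein of the adducin and aldolase family, also fell 2.06-fold (log2 -1.04, SE 0.05, limma adjusted p = 2.5e-15). Its WT signals were 1536, 1648 and 1605 in project 488, 3303, 3394, 3656, 3308 and 3394 in project 529, and 1567, 1589 and 1436 in project 582. Zfs1-null signals were 749, 685 and 840, then 1579, 1547, 1556, 1453 and 1567, then 1012, 823 and 777. The groups were apart within each project, although the zfs1-null arrays of project 529 were as high as WT arrays of the other projects. In the 12-array fit of project 582 the fall was log2 -0.82 (SE 0.33, adjusted p = 0.12), and the adjusted p was 8.2e-05 when the second double null array, which is far above its group for this gene, was left out.

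The other large falls were those of mug96 (log2 -1.03), meu15 (-0.96), mug15 (-0.94), mug150 (-0.78), mug108 (-0.73) and mug143 (-0.70). For mug96 the direction turned to log2 1.5 after quantile normalization and for meu15 the fall was then -0.10 (adjusted p = 0.47).

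**Figure D2:**
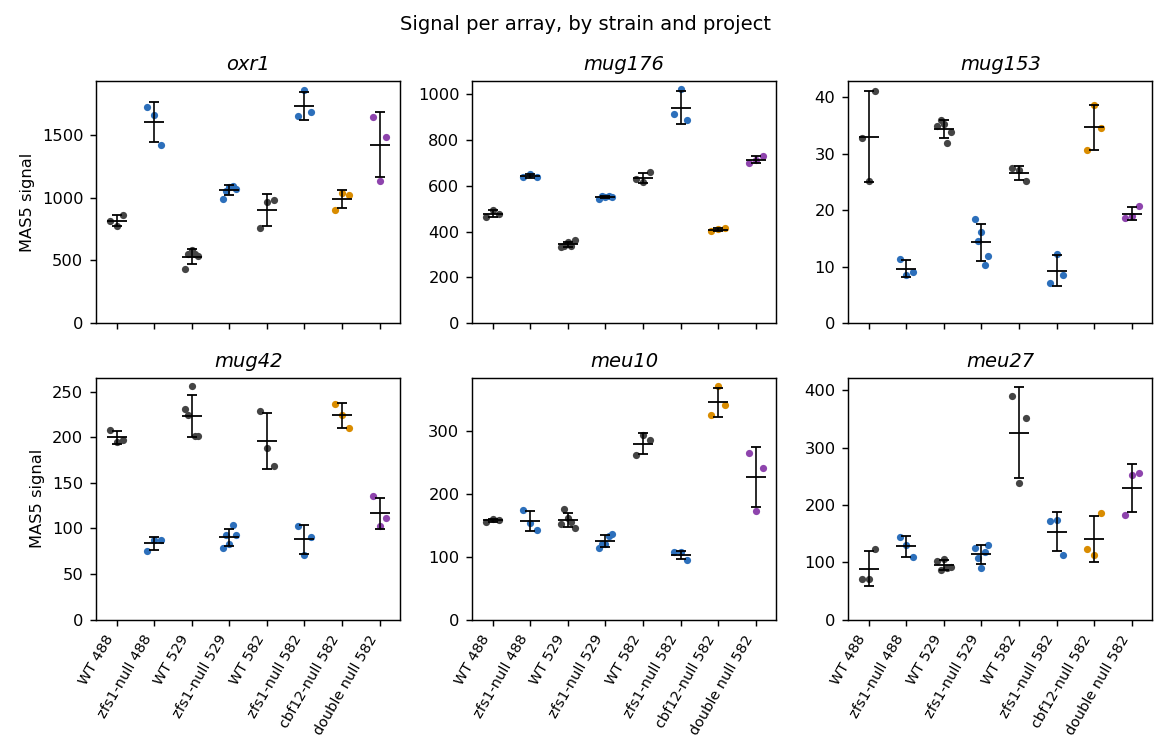
MAS5 signal on each array (linear axis from 0, arbitrary units) for oxr1, mug176, mug153, mug42, meu10 and meu27 in the 8 groups of arrays, where points are arrays and bars give the group mean and SD. For oxr1 and mug176 the zfs1-null arrays lie above WT in each project and for mug153 and mug42 below it, while meu10 and meu27 differ between projects.

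Each project was also tested by itself. In project 488, 47 members changed (35.1%, against 19.7% of all genes), with 12 higher (9.87% of all genes were) and 35 lower (9.8% of all genes were), or 19 and 25 after quantile normalization. This count rested on single arrays, as it was 29 without WT replicate 1, 27 without WT replicate 2 and 31 without zfs1-null replicate 1. In project 529, 71 changed (53%, against 42.2%), with 30 higher (25.7% of all genes) and 41 lower (16.5%), or 23 and 55 with array medians set equal. In project 582, 30 changed (22.4%, against 11.3%), with 4 higher (4.14% of all genes) and 26 lower (7.14%), or 9 and 21 after quantile normalization.

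The sign of the change was the same in all 3 projects for 84 members, 62.7% of them, against 49.1% of all genes. Of the 84, 23 were higher and 61 lower without Zfs1. In each project 15 members were called, all with 1 sign, as were 150 of all genes, 148 of them with 1 sign. Members that rose were meu23, mug122, mug176 and oxr1, and those that fell were atg101 (autophagy), meu15, meu18, mug133, mug143, mug15, mug150, mug153, mug177, mug27 and mug42. The calls of meu23 and mug122 in project 582 depended on single arrays. That of meu23 was lost without WT replicate 1 or zfs1-null replicate 2 or 3 (adjusted p = 0.060, 0.084 and 0.055), and that of mug122 without WT replicate 2 or zfs1-null replicate 2 (adjusted p = 0.064 and 0.10). After quantile normalization meu15 (log2 -0.21, adjusted p = 0.51) and mug153 (-0.11, adjusted p = 0.82) were not called in project 582. Across the 134 members, Pearson's r between the log2 changes of projects was 0.82 for 488 and 529, 0.69 for 488 and 582, and 0.75 for 529 and 582. These are descriptions across genes, which are not independent replicates.

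**Figure D3:**
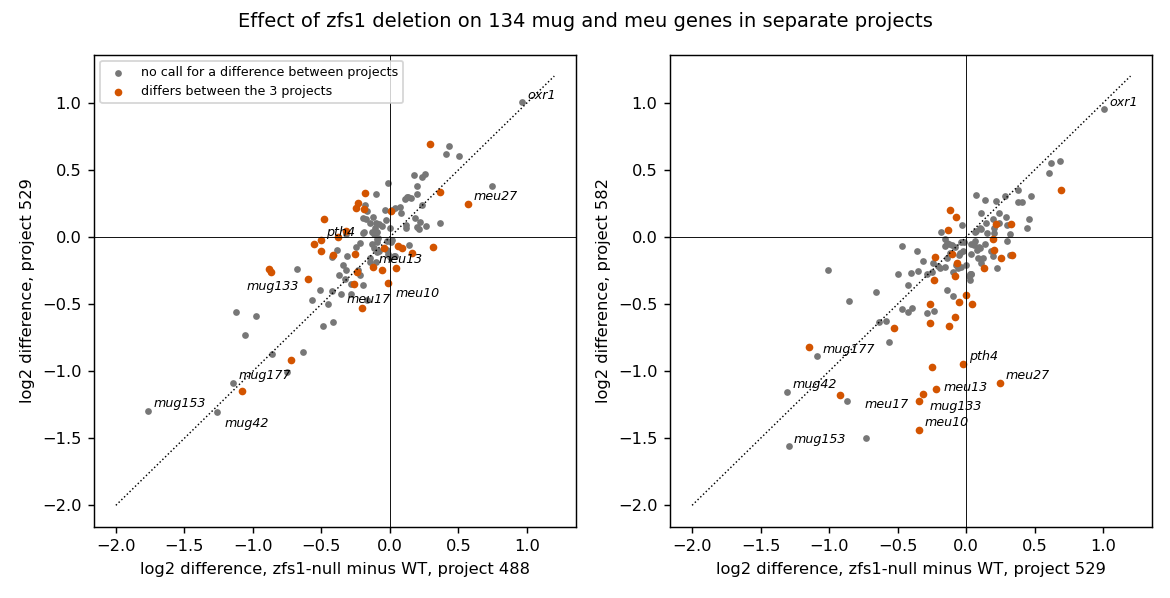
Log2 difference on zfs1 deletion (zfs1-null minus WT) for each of the 134 members in project 529 against project 488 (left, r = 0.82) and in project 582 against project 529 (right, r = 0.75), with equal changes on the dotted line. Coloured points are the 33 members whose change differed between the projects, and on the right meu10, meu13, meu17, meu27, mug133 and pth4 lie below the line.

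For 33 members the effect of zfs1 deletion differed between the projects (F test in limma, adjusted p under 0.05), 24.6% against 19.7% of all genes. The count was 21 without WT replicate 2 of project 488. The lowest adjusted p-values were those of meu10 (5.0e-07), meu13 (7.2e-06), meu17 (0.00024), pth4 (0.00026), mug133 (0.00030) and meu27 (0.00044). With projects 488 and 529 alone, a setting added after the data were seen, 18 members differed, and no share of all genes is given under it. Of these 6 genes only pth4, of the peptidyl-tRNA hydrolase family, still did (adjusted p = 0.0068).

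The spore wall gene meu10 had signals of 155, 161 and 158 in WT against 175, 154 and 143 without Zfs1 in project 488. In project 529 WT arrays gave 152, 177, 161, 155 and 146 and zfs1-null arrays 114, 121, 121, 133 and 136. In project 582 WT arrays gave 261, 294 and 285 and zfs1-null arrays 107, 107 and 95.7. The groups overlapped in project 488 and were apart in the others. The log2 changes were -0.01 (adjusted p = 0.94), -0.34 (adjusted p = 0.0017) and -1.44 (adjusted p = 9.2e-06) in the limma fits of projects 488, 529 and 582.

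For meu27 the WT signals were 71.2, 71.3 and 123 in project 488 and 389, 238 and 351 in project 582, with 86.5 to 106 in project 529. The zfs1-null signals were 144, 131 and 109, then 172, 175 and 113, with 89.8 to 130 in project 529. Only in project 582 were the strains apart. The log2 changes were 0.57 (adjusted p = 0.077), 0.25 (adjusted p = 0.060) and -1.08 (adjusted p = 0.0053). The change of meu27 in project 488 passed the threshold without WT replicate 3 (log2 0.83, adjusted p = 0.0092) or zfs1-null replicate 3 (log2 0.68, adjusted p = 0.029), and that in project 529 without WT replicate 3 (log2 0.29, adjusted p = 0.045) or zfs1-null replicate 3 (log2 0.33, adjusted p = 0.0093). The change of mug133 kept its sign, with log2 -0.60, -0.32 and -1.17.

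The meiotic chromosome pairing gene meu13, whose product is the Hop2 homologue, had WT signals of 176, 169 and 161 in project 488, 252, 221, 227, 219 and 220 in project 529, and 695, 647 and 743 in project 582. Without Zfs1 the signals were 146, 170 and 149, then 182, 199, 222, 183 and 193, then 330, 328 and 292. The WT arrays of project 582 were above all arrays of the other projects. In project 582 WT was at least 2-fold above WT of both other projects for 9 members, 6.72% of them, against 1.24% of all genes. The 9 were meu6, meu13, meu27, mug33, mug72, mug115, the predicted glucosidase gene meu17, the protein kinase gene mug27, which acts at the forespore membrane, and the galactosyltransferase gene otg2. Project, and with it growth and array handling, and the level of WT cannot be told apart.

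The second question was what the loss of Cbf12 did, which only project 582 tested. With Zfs1 present, 52 members changed in the fit of the 4 strains, 38.8% against 28.1% of all genes. Of these 22 rose (9.18% of all genes did) and 30 fell (18.9% of all genes did). This split depended on scaling, as it was 30 higher and 22 lower after quantile normalization and 30 and 21 with array medians set equal. With equal array medians the median log2 change over all genes shifted by 0.11, from -0.07 to 0.04, while the median of the members moved from -0.07 to 0.04. The summed signal of the mating state markers was 14518–15220 in cbf12-null against 15274–15650 in WT arrays, and their part in the result was not tested.

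The largest rise was that of mug14, from 1567, 1589 and 1436 in WT to 5772, 4825 and 5936 in cbf12-null arrays. That is 3.59-fold (log2 1.84, SE 0.33, limma adjusted p = 0.00078), with no overlap. The signal of mug108 went from 339, 546 and 597 to 1599, 1424 and 1603, also without overlap (3.21-fold, log2 1.68, SE 0.18, adjusted p = 4.9e-06). For mug96 the signals were 11, 8.11 and 9.46 in WT and 27.7, 29.1 and 21.1 without Cbf12 (log2 1.45, SE 0.30).

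The gene of ergothioneine synthesis egt1 had signals of 880, 832 and 858 in WT and 1562, 1470 and 1444 in cbf12-null arrays (1.74-fold, log2 0.80, SE 0.07, limma adjusted p = 8.3e-07). For mug182 the signals were 695, 828 and 857 against 1469, 1514 and 1470 (1.88-fold, log2 0.91, SE 0.09). In both genes every cbf12-null array lay above every WT array. The others of the 10 largest rises were mug143 (log2 1.0), mug68 (0.82), mug20 (0.82), which encodes a component of the linear elements of meiotic chromosomes, mug15 (0.80) and the aldehyde dehydrogenase gene atd3 (0.74).

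The 10 largest falls were those of meu27 (log2 -1.22), meu17 (-1.18), mug133 (-1.11), otg2 (-1.05), mug115 (-1.05), mug27 (-1.0), meu13 (-0.90), mug8 (-0.88), mug176 (-0.63) and the alpha-amylase family gene meu7 (-0.63). Among these are 6 of the 9 members whose WT level was high in project 582. The cbf12-null signals of meu13, for example, were 377, 371 and 365 against 695, 647 and 743 in WT of the same project. They lay below that WT and above each WT array of projects 488 and 529. When the WT level of project 582 was estimated from all other arrays, 26 members rose and 18 fell. That estimate takes the zfs1 effect of project 582 to be that of projects 488 and 529. The effect was called different between projects for meu27, meu13, meu17, mug133 and mug14, so for these genes the estimate cannot decide. Under it the changes were log2 0.23 for meu27 (adjusted p = 0.55), 0.05 for meu13 (0.83), -0.28 for meu17 (0.17) and -0.36 for mug133 (0.054). For mug14, where it cannot decide either, the value was log2 1.54. Under the same estimate mug108 (log2 1.01), mug182 (0.87) and egt1 (0.93) still rose.

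With Zfs1 absent, 18 members changed on cbf12 deletion, 13.4% against 9% of all genes, with 6 higher (3.24% of all genes) and 12 lower (5.76%). The split was 10 and 8 after quantile normalization and 9 and 11 with array medians set equal. Of the mating state markers 9 of 22 fell and none rose, and their summed signal was 11264–11914 in zfs1-null and 8819–9172 in double null arrays. Their part in the result was not tested. The members' count was 11 without zfs1-null replicate 2 and 28 without double null replicate 1. The largest fall was that of mug114, from 1991, 1943 and 1929 in zfs1-null to 695, 620 and 862 in the double null (2.72-fold, log2 -1.44, SE 0.10, limma adjusted p = 5.3e-08). In the presence of Zfs1 its signals were 1661, 1902 and 1736 in WT and 1898, 1960 and 2023 in cbf12-null arrays (log2 0.15, adjusted p = 0.25). The double null arrays were thus the lowest of the 12 arrays of the project, and the other groups lay within a narrow range. The genes on either side of mug114 in the annotation, stg1 and hxk2, changed by log2 0.09 and -0.05 in the same comparison and neither was called.

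Other falls were those of mug9 (log2 -0.67), mug147 (-0.64), egt1 (-0.64), meu7 (-0.64) and mug160 (-0.53). The call of mug147 was lost without zfs1-null replicate 1 or 2 or double null replicate 2 (adjusted p = 0.088, 0.11 and 0.083), and also after quantile normalization (adjusted p = 0.071). Rises were those of meu10 (log2 1.11), mug153 (1.10), mug155 (0.77), mug177 (0.57), mug103 (0.54) and the deubiquitinating protease gene mug105 (0.26). Of these, mug155 lost its call without zfs1-null replicate 2 (adjusted p = 0.0501) and mug105 without zfs1-null replicate 2 or 3 (adjusted p = 0.10 and 0.071). The call of mug177 was lost without any 1 of zfs1-null replicates 1 and 3, double null replicate 3, WT replicate 2 and cbf12-null replicate 1 (adjusted p = 0.11, 0.11, 0.064, 0.0504 and 0.0502). With only these 2 strains in the fit, mug147, mug177 and mug105 were not called (adjusted p = 0.067, 0.10 and 0.068).

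The rise of meu10, with 107, 107 and 95.7 in zfs1-null and 264, 173 and 242 in the double null, concerns the gene next to cbf12 in the annotation. With Zfs1 present its change was log2 0.30 (adjusted p = 0.13). That value was called after quantile normalization (0.46, adjusted p = 0.011) and with array medians set equal (0.41, adjusted p = 0.035). It was also called without double null replicate 2 (0.30, adjusted p = 0.046) and with WT of project 582 estimated from all other arrays (1.52, adjusted p = 2.3e-08). That estimate takes the zfs1 effect to be equal in all projects, and for meu10 the effect was called different. The gene beyond meu10, ptc2, changed by log2 0.13 with Zfs1 present and by -0.04 without it. On the other side of cbf12 the adjacent gene, aro2, was not among the genes measured. The gene beyond aro2, ssp1, changed by 0.05 and -0.30. The change of the locus by the deletion and the loss of Cbf12 cannot be told apart for meu10.

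The effects of cbf12 deletion with and without Zfs1, which rest on separate arrays, had the same sign for 75 of the 134 members (56%, against 64.5% of all genes), with r = 0.15 across the members (0.46 across all genes). Of the 22 members that rose with Zfs1 present, 18 had no call without Zfs1 (81.8%, against 80.5% of all genes that rose). Only mug177 rose in both, and egt1, mug147 and mug191 rose with Zfs1 and fell without it. For mug108 the change without Zfs1 was log2 -0.00 (adjusted p = 0.99) and for mug14 it was -0.05 (adjusted p = 0.94). Without double null replicate 2, whose mug14 signal was 1965 against 477 and 626, the value of mug14 was log2 -0.66 (adjusted p = 0.0026). Of the 30 that fell, 24 had no call without Zfs1 (80%, against 86.2% of all genes that fell), and meu7, mug160, mug176, mug8, mug9 and otg2 fell in both.

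**Figure D4:**
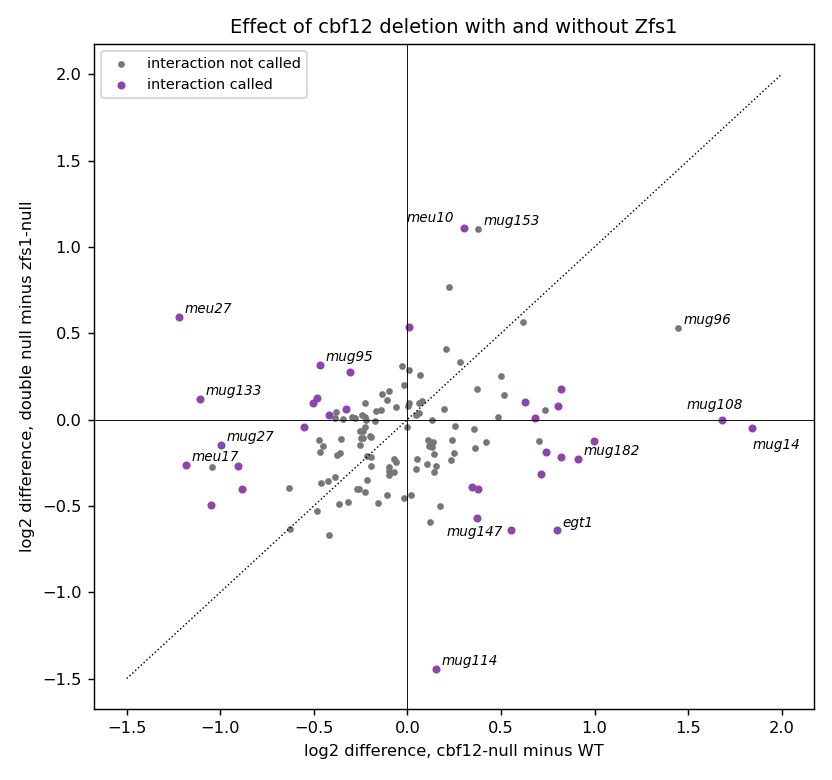
Log2 difference of each of the 134 members on cbf12 deletion with Zfs1 present (horizontal axis, cbf12-null minus WT) and with Zfs1 absent (vertical axis, double null minus zfs1-null), with equal changes on the dotted line and the 33 members with a called interaction coloured. The members mug14, mug108, egt1 and mug182 lie far right at or below 0 on the vertical axis, and mug114 lies lowest near 0 on the horizontal axis.

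The reverse comparison asked what zfs1 deletion did where Cbf12 was already missing. In the double null against the cbf12-null strain 66 members changed, 49.3% against 33.8% of all genes, with 16 higher (18.8% of all genes) and 50 lower (15%), or 27 and 39 after quantile normalization. The median log2 change was -0.19 for the members and 0.06 for all genes. Of the 91 genes that fell at least 2-fold 18 were members, where 134 of all 2899 genes were members. The mating state markers' summed signal was 8819–9172 in the double null and 14518–15220 in the cbf12-null arrays, and 15 of 22 of them fell. Their part in the result was not tested.

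The largest fall was that of mug14, from 5772, 4825 and 5936 to 477, 1965 and 626 (6.55-fold, log2 -2.71, SE 0.33, limma adjusted p = 1.4e-05). The double null arrays were all below the cbf12-null arrays, and replicate 2 was well above the other double null arrays. Next were mug108 (-1.93), mug15 (-1.91), mug143 (-1.74) and mug147 (-1.72). The fitted fall of mug96 was -2.41, but 2 of its 3 double null arrays lay below background, and after quantile normalization the value was -0.32 (adjusted p = 0.63). The 6 largest rises were those of rtt106 (log2 0.91), mug176 (0.80), meu27 (0.73), mug115 (0.67), mug122 (0.64) and oxr1 (0.51). The call of meu27 was lost without cbf12-null replicate 1 or 2 or double null replicate 2 or 3 (adjusted p = 0.085, 0.10, 0.054 and 0.080). After quantile normalization mug153 was higher in this comparison (log2 0.67), where the deposited scale gave a fall.

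For oxr1 the double null arrays gave 1643, 1137 and 1482, above the cbf12-null arrays at 905, 1036 and 1022. They lay below the zfs1-null arrays, at 1654 to 1858, so that the double null strain was between the other 2 strains. Across the members, zfs1 deletion with Cbf12 present (project 582) and absent gave changes of the same sign for 91 of 134 (67.9%, against 66.9% of all genes), with r = 0.50 (0.58 across all genes).

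Against WT, the double null strain had 60 changed members, 44.8% against 35.1% of all genes. Of these 6 rose and 54 fell, where 15.5% of all genes rose and 19.7% fell. After quantile normalization 37 members were called, 17 higher and 20 lower. The median log2 change was -0.29 for the members and -0.04 for all genes. The mating state markers had 18 of 22 lower and none higher, and their part in the result was not tested. The 6 largest falls were those of meu15 (log2 -1.51), meu17 (-1.48), meu13 (-1.40), mug114 (-1.29), mug147 (-1.17) and mug15 (-1.10). The 6 largest rises were those of oxr1 (log2 0.65), mug122 (0.47), mug51 (0.46), rtt106 (0.40), mug103 (0.31) and mug35 (0.21).

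Several of these rises rested on single arrays, and with only the 2 strains in the fit mug51, mug103 and mug35 were not called (adjusted p = 0.067, 0.12 and 0.083). The call of mug51 was lost without WT replicate 3 or double null replicate 2 (adjusted p = 0.11 and 0.086), and that of mug35 without WT replicate 1 or 3 or double null replicate 1 or 3 (adjusted p = 0.05 to 0.10). For mug103 it was kept without WT replicate 1, zfs1-null replicate 1 or 2 or double null replicate 1, and lost without any other of the 12 arrays (adjusted p = 0.051 to 0.13). The change of mug14 was log2 -0.87 (adjusted p = 0.053), and without double null replicate 2 it was -1.48 (adjusted p = 1.7e-07). That of meu27 was -0.49 (adjusted p = 0.11), and -0.70 without WT replicate 2 (adjusted p = 0.041). The change of meu10 was -0.33 (adjusted p = 0.091), and -0.45 without double null replicate 1 (adjusted p = 0.029).

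Whether the deletions added up was tested as the interaction of the 2 genotypes in project 582, which is the effect of cbf12 deletion without Zfs1 minus that with Zfs1. The interaction was called for 33 members, 24.6% against 9.76% of all genes, with 16 positive (4.38% of all genes) and 17 negative values (5.38%). The cbf12 signal itself was higher in zfs1-null than in WT arrays, and its part in the interactions was not tested. Negative interactions were those of mug14 (log2 -1.89), mug108 (-1.69), mug114 (-1.60), egt1 (-1.44), mug147 (-1.20) and mug182 (-1.14). For egt1 the 4 strains gave 880, 832 and 858 in WT, 935, 954 and 880 in zfs1-null, 1562, 1470 and 1444 in cbf12-null, and 602, 592 and 582 in double null arrays. The cbf12-null arrays were the highest and the double null arrays the lowest, with neither overlapping another group (SE 0.10, limma adjusted p = 1.0e-07). In mug182 the cbf12-null arrays were far above the others, at 1469 to 1514. The zfs1-null arrays (762, 751 and 763) lay within the range of WT. Double null arrays (692, 595 and 662) lay below every WT array. For mug147 the signals were 682, 921 and 917 in WT, 593, 616 and 528 in zfs1-null, 1103, 1365 and 1211 in cbf12-null and 387, 272 and 482 in double null arrays. The interaction of mug14 was no longer called without cbf12-null replicate 3 (log2 -1.83, adjusted p = 0.051).

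**Figure D5:**
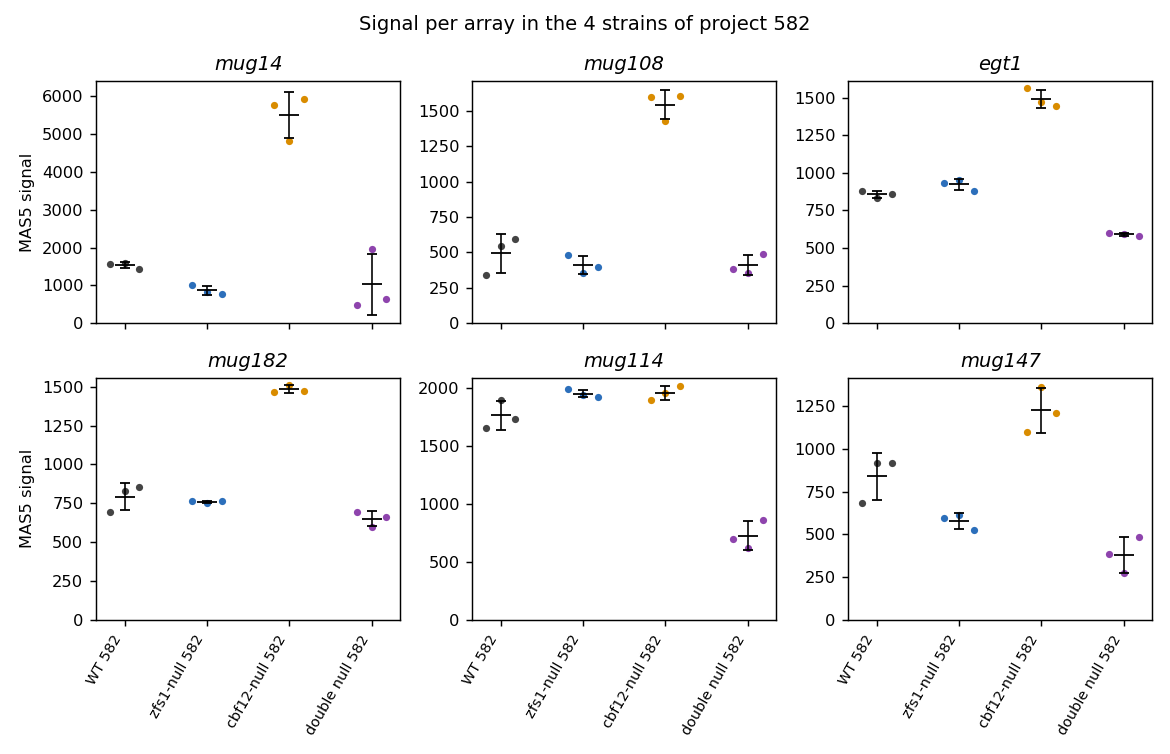
MAS5 signal on each array of project 582 (linear axis from 0, arbitrary units) for mug14, mug108, egt1, mug182, mug114 and mug147 in WT, zfs1-null, cbf12-null and double null strains, where points are arrays and bars give the group mean and SD. The cbf12-null arrays are the highest for mug14, mug108, egt1, mug182 and mug147. The double null arrays are the lowest for egt1, mug182, mug114 and mug147.

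Positive interactions were those of meu27 (log2 1.82), mug133 (1.23), meu17 (0.92), mug27 (0.85), meu10 (0.81) and mug95 (0.78). For mug133 the WT arrays gave 525, 590 and 567, and the 9 arrays of the other strains lay between 234 and 290. WT was thus apart from all 3 mutant groups, and the cbf12-null range overlapped that of both other mutants. When WT of project 582 was instead estimated from all other arrays, the interaction of mug133 was 0.48 and was still called. Those of meu27 (0.36, adjusted p = 0.29), meu17 (0.01, adjusted p = 0.95) and mug95 (0.30, adjusted p = 0.066) were not called under that estimate and that of meu10 turned to -0.42. The estimate takes the zfs1 effect to be equal in all projects. It cannot decide for mug133, meu27, meu17 and meu10, where that effect was called different between projects. The meu10 interaction was also lost without WT replicate 2, zfs1-null replicate 3, cbf12-null replicate 1 or 3 or double null replicate 3 (adjusted p = 0.050 to 0.061). The interaction of mug153 was 0.73 (adjusted p = 0.14), and 0.95 without zfs1-null replicate 2 (adjusted p = 0.043).

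Some members moved in opposite directions on the deletion of either gene. Measured on separate arrays, with zfs1 deletion taken from project 529, 17 members fell on zfs1 deletion and rose on cbf12 deletion with Zfs1 present. They were 41.5% of the 41 that fell and 77.3% of the 22 that rose. Over all genes 109 did so, 22.9% of the 477 that fell and 41% of the 266 that rose. With project 488 in place of 529, 10 members did so, 28.6% of the 35 that fell and 45.5% of the 22 that rose, where over all genes the shares were 31% and 33.1%. The share of falls shared in this way was thus above that of all genes with project 529 and below it with project 488. In the reverse direction 7 of the 30 members that rose in project 529 fell on cbf12 deletion (23.3%, against 28.7% of all genes). With project 488 it was 4 of 12 (33.3%, against 22.7%), so this share too went either way. Across the 134 members the log2 changes of zfs1 deletion in project 529 and of cbf12 deletion had r = -0.46 (-0.22 across all genes).

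In none of the 9 comparisons of strains were 17 members called, 12.7% against 22.6% of all genes. Among them are the forespore membrane gene meu14 and the RNA-binding protein gene mug28. The 17 were iph1, meu14, mug109, mug116, mug117, mug132, mug162, mug170, mug184, mug28, mug4, mug45, mug56, mug57, mug65, nur1 and snd2.

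A list of regulators of meiotic gene expression, 37 of them measured and all above background on all 28 arrays, was read in the same fits. On zfs1 deletion over all projects 8 of the 37 rose and 9 fell, where 23.4% of all genes rose and 18.3% fell. The regulators' median log2 change was -0.00. The largest fall was that of mei2 (log2 -1.89, SE 0.10, limma adjusted p = 2.1e-14), which encodes the RNA-binding protein that starts meiosis. It was followed by the meiotic cyclin gene rem1 (-1.39), rsv2 (-0.78), the arrestin family gene ste7 (-0.59), num1 (-0.51) and the stress factor gene atf1 (-0.40). Smaller falls were those of atf31 (-0.36), spo5 (-0.28) and ste11 (-0.24), which encodes the transcription factor of mating genes. Among the 8 rises were those of mbx2 (0.60), esc1 (0.47) and spo6 (0.28). Of the system that removes meiotic transcripts in growing cells, mmi1 and red1 were not called, and its other listed genes are not described here. The genes mei4 and pat1 were not called either.

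On cbf12 deletion with Zfs1 present 6 of the 37 regulators rose and 10 fell, where 9.18% of all genes rose and 18.9% fell. Among the called regulators were mei2 (log2 0.86) and ste11 (-1.0). Without Zfs1 no regulator rose and 9 fell (3.24% and 5.76% of all genes), with mei2 at -2.42 and ste11 at -1.39. In the double null against WT 1 regulator rose and 16 fell (15.5% and 19.7% of all genes), and the change of mei2 was log2 -3.88. The interaction for mei2 was -3.28 (SE 0.23, limma adjusted p = 1.0e-07). Called interactions of the members went both ways, with 16 positive and 17 negative, and a tie between them and mei2 was not tested.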

How the data were processed

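Signals of 10928 probe sets on 28 arrays were deposited as linear intensity values. Per the submitters' processing notes the authors used MAS5. The 2% trimmed mean of the deposited intensity values was 500.1 to 500.2 on each array, which is the scaling found in the files. The sources used here do not give the MAS5 settings or the annotation build of the array. Array number limits the precision, since intensities carry no read depth.

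Probe sets were named by the platform's gene table and updated through the RefSeq annotation, used for names and gene order only, which left 2917 probe sets with 1 S. pombe gene and 2899 genes after the brightest probe set per gene was kept. That gene table held 5538 of the 10928 probe sets. Those with several genes (20), those for other species (2601) and all probe sets absent from the table were left out. The shares of all genes thus refer to the 2899 genes so named, which are not every gene of S. pombe. Strains were compared on log2 signals, made here from the deposited intensities, with limma 3.58.1 in R 4.3.3 (lmFit, eBayes with an intensity trend), two-sided, adjusted by Benjamini-Hochberg over the 2899 genes at a threshold of 0.05. Zfs1 deletion was fitted over 22 arrays with a project term and within each project, and the 582 comparisons in 1 fit of 12 arrays. The code was tested on simulated data. Alternatives were quantile normalization, equal array medians, a background filter, mean of probe sets, an offset of 16 before the log, no trend, other sets of arrays, a replicate block and leaving out each array. For these alternatives the members' counts are given without the share of all genes. They show how far those counts moved and no more. Same-numbered arrays deviated with correlations from -0.30 to 0.31, and no label ties the numbers to a shared culture, so the numbers were not taken as pairs. Every deposited column was used.

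Members named are those called with the largest changes (up to 10 each way for zfs1 deletion over all projects and cbf12 deletion with Zfs1 present, 6 elsewhere), the 6 with the lowest p between projects, the 6 brightest and dimmest, neighbours of other members, and mug14, mug133, mug153, meu10 and meu27. Flanking genes, members high in WT of project 582, and members that changed sign, were called in each project or were never called are named too, chosen after their values were seen. The members, the mating state list and the regulator list were chosen with earlier results of these data known. A planned search for sequence motifs was not run.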

Additional observations from a re-analysis of the deposited data

Results flagged for a closer look

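The check for an array far from its group needs at least 4 arrays, so it covered the WT and zfs1-null groups of project 529 and none of the groups of 3. Among these 92 sets of values, for the 46 members named with values, 6 held such an array. In a group of 3, not examined by that check, double null replicate 2 had a mug14 signal of 1965 against 477 and 626. Chance flags about 1 in 20 groups. WT replicate 1 was high for meu13 at 252.2, where the other arrays lay between 218.6 and 226.8. It was low for mug95 at 154.3, with the others at 165.5 to 169.3. WT replicate 3 was high for mug14 at 3656 (others 3303 to 3394) and WT replicate 2 was low for mug68 at 180.6 (others 216.7 to 228.7). Zfs1-null replicate 4 was low for mug14 at 1453 (others 1547 to 1579) and zfs1-null replicate 5 was high for rtt106 at 783.6 (others 665.4 to 698.0).

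The effect of zfs1 deletion differed between the 3 projects by an F test in limma for meu10 (adjusted p = 5.0e-07), meu13 (7.2e-06), meu17 (0.00024), pth4 (0.00026), mug133 (0.00030), meu27 (0.00044) and mug14 (0.049). The last was lost without any 1 of 19 of the 22 arrays (adjusted p = 0.050 to 0.16).

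The effect of cbf12 deletion differed with the presence of Zfs1 by the interaction term for meu27 (log2 1.82), mug133 (1.23), meu17 (0.92), mug27 (0.85), meu10 (0.81) and mug95 (0.78), where it was more positive without Zfs1. It was more negative without Zfs1 for mug14 (log2 -1.89), mug108 (-1.69), mug114 (-1.60), egt1 (-1.44), mug147 (-1.20) and mug182 (-1.14).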

How the results depend on the processing

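Of the alternatives run for single members, 3248 values kept direction and side of the threshold, 88 lost the call, 21 gained one and 11 reversed. Leaving out the project term lowered the count of members changed on zfs1 deletion over all projects from 79 to 43 (8 higher, 35 lower). The count that differed between projects went from 33 to 20 after quantile normalization and to 18 with projects 488 and 529 alone, which also gave meu27 log2 0.37 on zfs1 deletion and was added after the data were seen. The double null count went from 60 to 37 after quantile normalization and to 35 with the 2 strains alone. Quantile normalization reversed mug96 on zfs1 deletion over all projects (log2 1.5) and in project 582 (0.66), and mug153 in the double null against cbf12-null (0.67) and against WT (0.85). Estimating WT of project 582 from all other arrays reversed meu27 (0.23) and meu13 (0.046) on cbf12 deletion, mug35 (-0.0044), meu10 (0.89) and meu27 (0.96) in the double null, and the interaction of meu10 (-0.42). That estimate takes the zfs1 effect to be equal in all projects, and the F test called it different for meu27, meu13 and meu10. The cause was not tested. Without 1 array, counts ran from 76 to 81 for zfs1 deletion over all projects, 27 to 54 in project 488, 67 to 73 in project 529, 24 to 44 in project 582, 21 to 37 between projects, 39 to 63 for cbf12 deletion with Zfs1 and 11 to 28 without it, 52 to 76 for zfs1 deletion without Cbf12, 42 to 64 for the double null and 23 to 41 for the interaction. With the replicate number as a block the counts in the same order were 76, 37, 76, 32, 30, 53, 18, 64, 59 and 33. The numbers share no stated pairing, and in none of the 8 pairs of groups did every array correlate best with its own number. Signal over background limits mug96, which was below background on some arrays.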

Other observations

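Members adjacent to another member in the annotation were compared within projects over the 28 arrays, as a description across arrays that share project and strain. Pearson's r was 0.71 for mug163 and fzr3, a gene of the anaphase-promoting complex activator family, 0.50 for mug177 and mug58, 0.50 for mug116 and mug86, 0.27 for atg101 and mug105, 0.14 for mug57 and mug97, and -0.31 for mug105 and meu29. Over all 8911 pairs of members the median r was 0.13, with 90% of pairs between -0.58 and 0.71. The adjacent pairs thus lay within the range of all pairs.

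The members whose signals followed each other most closely in the same measure were mug153 and mug177 (r = 0.94), meu13 and meu17 (0.93), mug143 and mug15 (0.92), and mug14 and mug143 (0.92). The most opposed were mug15 and rtt106 (r = -0.95) and mug42 and oxr1 (-0.93). These values contain the strain differences given above.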
